A study of Rattus norvegicus with 9 samples.

Results

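Messenger RNA of Myl7, Sln and Gja5, genes whose products belong to the atria and the conduction system of the heart, was followed through 9 RNA-seq libraries of rat ventricle. These are 3 genes among 25075 loci of at least 200 nt, of which 14190 passed a filter on low values. All 3 genes passed it. They were chosen by their deposited names. Where a library's assembly did not carry the name, the transcripts placed at that locus were summed. The gene line gave the value of Sln in all 9 libraries, of Gja5 in 7 and of Myl7 in 1.

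The series has 3 groups of Sprague-Dawley rats with 3 libraries each. Fetal libraries were made from the ventricle at embryonic day 18, are titled as litters 1 to 3, and come from animals without surgery whose RNA was isolated with Trizol. TAC libraries were made from the left ventricle of adults after transverse aortic constriction, a narrowing of the aorta that loads the ventricle with pressure. Sham libraries were made from the left ventricle of adults that had the same operation without the constriction. RNA of both adult groups was isolated with a column kit. Neither the age of the adults nor the time since surgery is stated. For the adult groups nothing in the labels ties a library to an animal of its own, so p-values measure only the spread between these libraries, which may be technical. Age, region of the heart and RNA isolation cannot be told apart between fetal and adult libraries. Fewer cells of a type and less RNA per cell cannot be told apart in such bulk tissue.

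Myl7 encodes the atrial form of the regulatory myosin light chain, which sits on the neck of the myosin head. In rodents it is made throughout the early heart tube and later mainly in the atria. Sln encodes sarcolipin, a small membrane protein that inhibits the calcium pump of the sarcoplasmic reticulum and is known from the atria and from skeletal muscle. Gja5 encodes connexin 40, which forms gap junctions between atrial myocytes, in the ventricular conduction system and in the endothelium of arteries.

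Values are rescaled FPKM, that is, the deposited FPKM (fragments per kilobase of transcript, scaled to sequencing depth) after each library was rescaled by the median of its ratios to the other libraries. Being per length, they can be compared between genes, but they depend on the lengths of the transcript models, which for Myl7 differed between libraries. Tests used limma on log2(rescaled FPKM + 1) over all 9 libraries, with Benjamini-Hochberg adjustment over the 14190 loci and a threshold of 0.05. This scale understates the change of low genes. Differences are the first-named group minus the second on that log2 scale. The comparisons share libraries, so their results are not independent of each other. Replicate 1 of each group stood apart from replicates 2 and 3: its shortest assembled feature was 43 nt, against 63 nt in replicates 2 and 3 of every group. In fetal replicate 2, 2 genes of the marker lists lay far above every other library. There the cardiac actin Actc1 stood at 135155, against 14012 to 27099 in the others, and the endothelial factor Sox17 at 31905, against 3.68 to 12.5.

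In rn4 coordinates the reference transcript of Myl7 (ENSRNOT00000019335, 1479 nt) lies at chr14:86567234-86570116. That of Sln (ENSRNOT00000011974, 298 nt) lies at chr8:57314470-57318717, and that of Gja5 (ENSRNOT00000023488, 3103 nt) at chr2:191824096-191843865. Each gene has 1 reference transcript in these files. Values cover all exons of a transcript together. The promoter of Gja5 is shown because this gene had the most even values within groups of the 3. It holds the 250 bases before the RefSeq start, at chr2:187290977-187291226 of GRCr8, plus strand.

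Gja5 promoter: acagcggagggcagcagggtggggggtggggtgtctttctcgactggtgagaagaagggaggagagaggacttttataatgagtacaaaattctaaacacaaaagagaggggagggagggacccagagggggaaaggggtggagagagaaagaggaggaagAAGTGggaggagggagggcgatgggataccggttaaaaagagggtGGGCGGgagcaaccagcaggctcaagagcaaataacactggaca

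Capitals mark AAGTG, the core letters bound by NKX2-5, which begin 89 bases before the start, and GGGCGG, a GC box, which begins 44 bases before it. On either strand, AAGTG occurs in 40.6% and GGGCGG in 30.5% of 33469 RefSeq promoter windows of this length. The GATA letters AGATAA (16.9% of windows) and the T-box letters TCACACC (3.22%) are not in this window on either strand. A match of letters is no evidence of binding, and these RNA libraries do not measure it.

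The 3 genes had different patterns over the groups. Gja5 was high in the 3 fetal libraries and low in all 6 adult ones. Sln was highest in TAC and lay between 0.239 and 13.8 rescaled FPKM in the other 6 libraries. Myl7 was high in fetal, spread widely in TAC and was lowest in sham. By level, fetal libraries held Myl7 above Gja5 above Sln in 3 of 3, and TAC libraries held Myl7 above Sln above Gja5 in 3 of 3. Sham libraries had no common order: Myl7 was the highest of the 3 genes in replicates 1 and 2 and the lowest, level with Sln, in replicate 3.

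**Figure D1:**
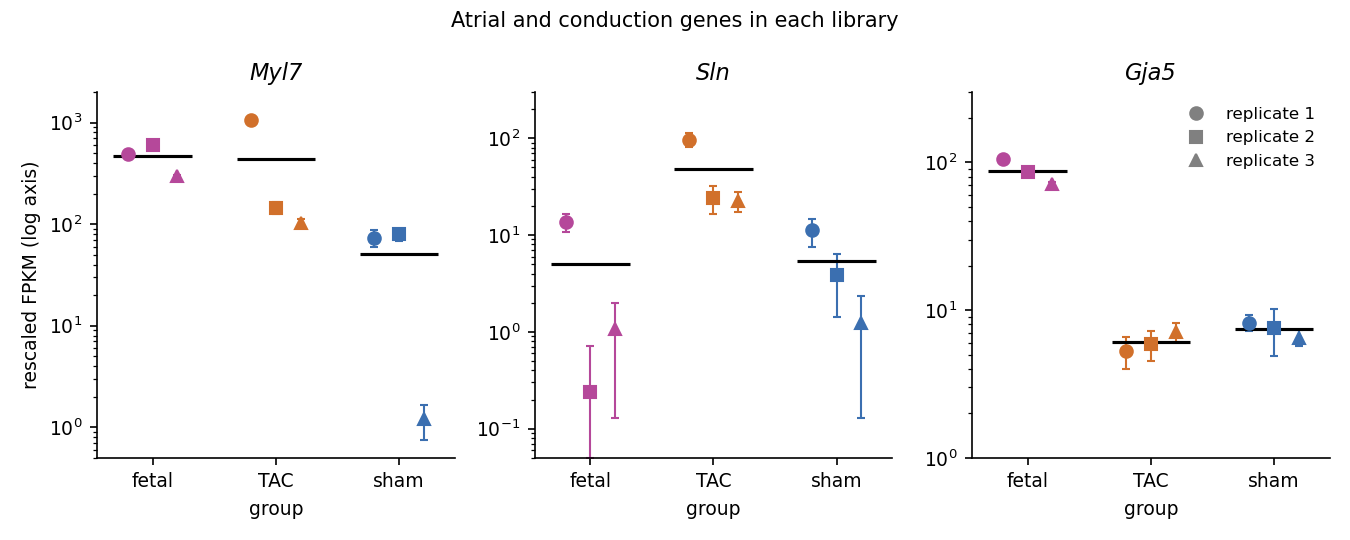
Rescaled FPKM (log axis) of Myl7, Sln and Gja5 in each library, by group, with replicates 1, 2 and 3 as circle, square and triangle. Horizontal bars are group means and error bars the deposited confidence bounds after rescaling. These bounds describe each library by itself and not the spread between libraries. Where a gene had several transcripts in a library, they need not reflect counting alone. The lower bound of Sln in fetal replicate 2 is 0 and runs off the axis. Gja5 separates fetal from adult libraries, Sln is highest in TAC, and Myl7 in sham replicate 3 stands at 1.20.

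Gja5 had 106, 86.1 and 71.2 rescaled FPKM in fetal replicates 1 to 3, 5.26, 5.87 and 7.16 in TAC and 8.25, 7.54 and 6.52 in sham. Every fetal library lay above every adult library, while TAC and sham libraries overlapped. Behind these values stood between 3455 and 5621 fragments implied by the deposited bounds in fetal libraries, between 68 and 183 in TAC, and 237 and 240 in sham replicates 1 and 3; none is given for sham replicate 2, which has a second transcript. The group means were 87.7 ± 17.3 in fetal, 6.10 ± 0.973 in TAC and 7.43 ± 0.870 in sham (SD, n = 3 each).

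Against sham, Gja5 rose in fetal by 3.38 ± 0.19 (SE) on the log2 scale, 11.8 times by the means (limma, Benjamini-Hochberg adjusted p = 5.91e-06; 95% interval 2.95 to 3.81). It was likewise higher in fetal than in TAC, by 3.63 ± 0.19, with an adjusted p of 4.46e-06 in limma. TAC minus sham was -0.25 with an interval from -0.69 to 0.18 (limma adjusted p = 1), so no difference was detectable between these libraries. The two-sided exact permutation test gave 0.1 for both fetal comparisons, the smallest p that 3 libraries against 3 allow, and 0.2 for TAC against sham. In order of level, fetal stood first, and TAC and sham did not differ beyond their spread.

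Among its tested loci Gja5 ranked between 1164th and 1716th in fetal libraries and between 8675th and 9847th in adult libraries. An assembled second transcript contributed to Gja5 in sham replicate 2 alone, where the reference transcript held 42.7% of the value.

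Sln had 13.8, 0.239 and 1.07 rescaled FPKM in fetal replicates 1 to 3, 96.8, 24.4 and 22.7 in TAC and 11.1, 3.91 and 1.23 in sham. Every TAC library lay above every sham and every fetal library, and fetal and sham overlapped. These values rest on few fragments, since the transcript is short and its level low: 90, 1 and 5 in fetal, 142, 38 and 72 in TAC, and 38, 10 and 5 in sham. For fetal replicate 2 the deposited bounds run from 0 to 0.718, so Sln was at the limit of detection there.

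The mean of Sln was 5.02 ± 7.58 in fetal, 48.0 ± 42.3 in TAC and 5.43 ± 5.12 in sham (SD, n = 3 each). TAC minus sham was 2.93 ± 1.01 (SE) with a 95% interval from 0.61 to 5.25, and 8.84 times by the means. It did not pass the threshold in limma (unadjusted p = 0.0192, Benjamini-Hochberg adjusted p = 1). In this comparison 2 of 14190 loci were called, or 0.0141%. Of all loci, 0.19% had an absolute log2 difference between TAC and sham as large as that of Sln, and by p Sln ranked 240th. In fetal, Sln fell relative to TAC (-3.54 on the log2 scale, SE 1.01, 95% interval -5.85 to -1.22; limma, adjusted p = 0.0206). Fetal minus sham was -0.61 with an interval from -2.92 to 1.71 (limma adjusted p = 0.66), so no difference was detectable. TAC stood first in order of level, though its difference to sham was not called. Fetal and sham did not differ beyond their spread.

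The call of Sln between fetal and TAC was lost without TAC replicate 1 (limma adjusted p = 0.0653), fetal replicate 2 (0.0704) or fetal replicate 3 (0.0679), and with reference transcripts only (0.0677). Sln was highest in replicate 1 of all 3 groups, which held for 9.53% of all loci tested and for 13% of the 376 tested loci of at most 400 nt. Replicate 1 minus the mean of replicates 2 and 3 was 3.21 in fetal, 1.995 in TAC and 1.87 in sham for Sln on the log2 scale. Over those short loci the median of this difference was -0.06 in fetal, -0.68 in TAC and -0.08 in sham. With replicates 2 and 3 alone, the difference was -3.94 between fetal and TAC (limma adjusted p = 0.00238), and 2.89 between TAC and sham, which was not called (limma unadjusted p = 0.000887, adjusted p = 0.267). With the replicate number as a block, the TAC minus sham difference of Sln stayed at 2.93 with a smaller error (SE 0.42, limma unadjusted p = 0.000211, adjusted p = 0.374). It was 2.27 without TAC replicate 1 (limma unadjusted p = 0.0708) and 2.33 without sham replicate 3 (0.0715). The part of replicate 1 and of fragment length in the values of this short transcript was not tested.

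Myl7 had 487, 606 and 298 rescaled FPKM in fetal replicates 1 to 3, 1051, 145 and 103 in TAC and 73.8, 79.2 and 1.20 in sham. Every fetal and every TAC library lay above every sham library, and TAC replicate 1 lay above all fetal libraries. Sham replicate 3, with 29 implied fragments, was more than an order of magnitude below every other library. Among its tested loci Myl7 ranked 108th in TAC replicate 1 and 12645th in sham replicate 3.

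By group, Myl7 averaged 464 ± 155 in fetal, 433 ± 535 in TAC and 51.4 ± 43.5 in sham (SD, n = 3 each). It rose in fetal relative to sham, by 4.24 ± 1.40 (SE) on the log2 scale and 9.03 times by the means (limma, Benjamini-Hochberg adjusted p = 0.0364; 95% interval 1.04 to 7.44). That call was lost without fetal replicate 1 (limma adjusted p = 0.086), 2 (0.0946) or 3 (0.0657) or sham replicate 3 (0.0594). TAC minus sham was 3.41 with an interval from 0.22 to 6.61 (unadjusted p = 0.039, limma adjusted p = 1), and fetal minus TAC was 0.82 with an interval from -2.37 to 4.02 (limma adjusted p = 0.669). Without sham replicate 3 the difference between fetal and sham was 2.53 and that between TAC and sham 1.70 (limma unadjusted p = 0.0986). TAC minus sham was 2.38 without TAC replicate 1 (limma unadjusted p = 0.137). With 1 library left out at a time, fetal minus TAC ran from 0.19 to 1.85. The order of level was fetal, TAC and sham by the means, and fetal and TAC did not differ beyond their spread. The difference between TAC and sham was not called either.

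The transcript models behind Myl7 differed between libraries more than those of the other genes: from 446 to 1684 nt, against 298 to 352 nt for Sln and 3103 to 3205 nt for Gja5. The reference transcript of Myl7 held 0%, 41.7% and 100% of the value in fetal replicates 1 to 3, 15%, 27.3% and 14.4% in TAC, and 41.3%, 19.7% and 100% in sham. The rest lay on transcripts assembled in that library alone, which in TAC replicates 1 and 2 were 489 and 452 nt long. FPKM divides by model length, so the same fragments give a larger value on a shorter model.

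With 1 common length for all models, Myl7 had 359, 345 and 187 in fetal replicates 1 to 3, 312, 47.1 and 39.9 in TAC and 50.2, 31.7 and 0.772 in sham. On this scale fetal still lay above sham in every library, whereas TAC and sham overlapped. Fetal minus sham was then 4.32 (limma adjusted p = 0.023), TAC minus sham 2.57 (adjusted p = 1) and fetal minus TAC 1.75 (adjusted p = 0.293). TAC replicate 1 came to lie within the range of the fetal libraries and sham replicate 3 remained the lowest. With reference transcripts only, the difference between fetal and sham was 2.07 and the call was lost (limma adjusted p = 0.618). Myl7 belongs to a family with close paralogs, so reads may be shared with them. TruSeq libraries of this kind do not mark strand, so reads from an overlapping antisense transcript could not be told apart either.

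**Figure D2:**
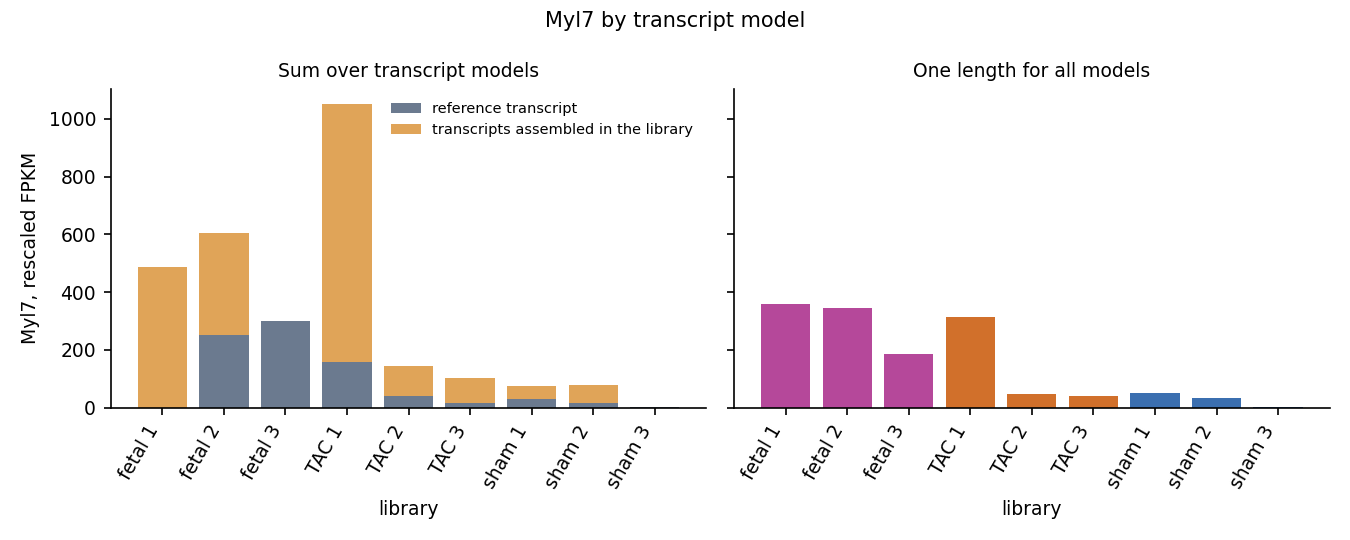
Myl7 in each library as the sum over transcript models, split into the reference transcript and transcripts assembled in that library (left), and with 1 length for all models (right), both in rescaled FPKM on a linear axis. TAC replicate 1 stands at 1051 on the left and at 312 on the right, while fetal replicate 2 stands at 606 and 345.

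Side by side, 2 of the 3 genes were called between fetal and sham (Myl7 and Gja5, both higher in fetal), where 45.5% of all 14190 loci were called, 22.4% higher and 23.1% lower. Both lay above sham in every fetal library, which held for 29.2% of loci. Between fetal and TAC 2 of 3 were called as well, Gja5 higher and Sln lower in fetal, in a comparison that called 45.5% of loci, 22.7% higher and 22.8% lower. Gja5 was higher in every fetal library than in every TAC library, as were 28.3% of loci, and Sln was lower in every one, as were 27.6%. A call in either comparison was therefore common. Between TAC and sham limma called 0 of 3, and 2 of 3, Sln and Myl7, had an unadjusted p below 0.05, as had 4.33% of all loci. Sln and Myl7 were higher in every TAC library than in every sham library, which held for 4.26% of loci, though for Myl7 not with the common model length.

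**Figure D3:**
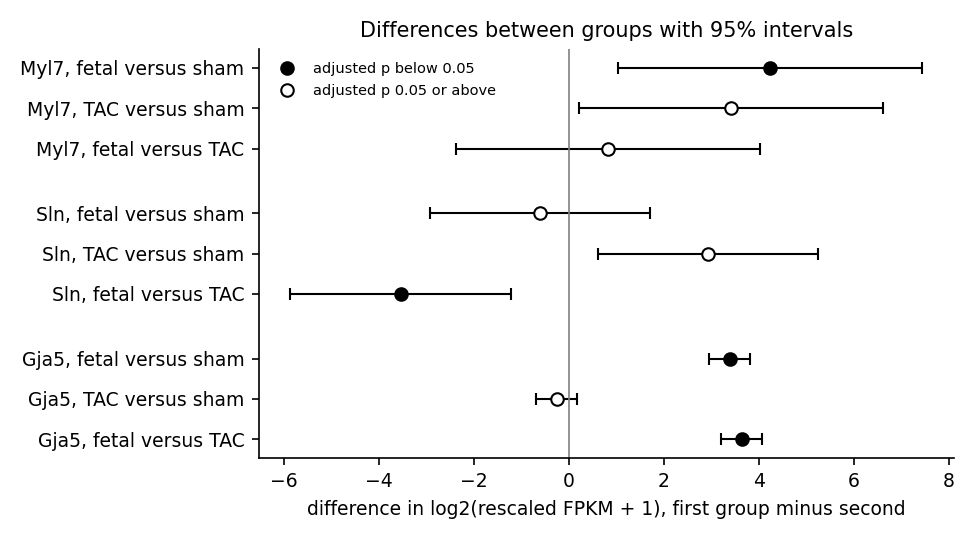
Differences in log2(rescaled FPKM + 1) for the 3 genes in each comparison, first-named group minus second, with 95% intervals from limma; filled points have an adjusted p below 0.05. Gja5 has the narrowest intervals, and the intervals of Myl7 between fetal and TAC, Sln between fetal and sham and Gja5 between TAC and sham include 0.

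A list of 34 further atrial and conduction genes was examined beside them, of which 18 carry a symbol in these files and 13 were tested. In fetal relative to sham 4 rose, 1 fell and 8 were not called, where 22.4% of all loci were called higher and 23.1% lower. Of the 4, Bmp10 passed the filter through its fetal values alone. The median difference was 0.21, against 0.05 over all loci. With the replicate number as a block 5 rose, Nr2f2 being added, and 1 fell. Nppa, atrial natriuretic peptide, had 1899, 1346 and 885 rescaled FPKM in fetal replicates 1 to 3, 1750.25, 250.1 and 518 in TAC and 534, 416 and 149.96 in sham. It rose in fetal relative to sham by 2.02 (limma adjusted p = 0.0496), a call lost without fetal replicate 2 (0.106), and TAC overlapped with both other groups. As for Myl7, TAC replicate 1 was the highest TAC library and sham replicate 3 the lowest library of all.

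Bmp10, a growth factor of trabecular and atrial myocardium, stood at 35.1, 14.6 and 13.9 rescaled FPKM in fetal replicates 1 to 3. It was listed at 0 in TAC replicates 2 and 3 and in all sham libraries, with 0.284 in TAC replicate 1 (fetal minus sham 4.34, limma adjusted p = 2.85e-05). Bmp10 reached the filter value of 1 in fetal libraries alone. It was thus tested only because it is high there, and its call is no support of its own. Tbx18, a T-box factor of the sinus node region and the epicardium, had 19.2, 23.8 and 15.9 in fetal, 2.74, 2.37 and 2.36 in TAC and 3.35, 2.75 and 2.82 in sham (limma adjusted p = 3.44e-05). Both Bmp10 and Tbx18 separated all fetal from all adult libraries, as Gja5 did. Every fetal library lay above every sham library for 29.2% of all loci and above every TAC library for 28.3%. The share above both adult groups is not given here. Etv1, a factor of fast conducting myocardium in the mouse, rose in fetal relative to sham by 0.92 (limma adjusted p = 0.00231). Irx3, a factor of the conduction system in the mouse, had 5.29, 15.7 and 11.7 in fetal and 21.4, 19.6 and 18.5 in sham, and fell (-0.92, limma adjusted p = 0.0456, but 0.0574 without TAC replicate 1 and 0.146 with replicates 2 and 3 alone).

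No gene of this list was called between TAC and sham by limma: 0 of 13, with 0 of 13 at an unadjusted p below 0.05, and a median of 0.12 against -0.01 over all loci. That median was 0.00 without TAC replicate 1. Between fetal and TAC, 3 rose in fetal (Bmp10, Tbx18 and Etv1) and 1 fell, the atrial potassium channel Kcna5 (-1.62, limma adjusted p = 0.0256, but 0.0776 without fetal replicate 2). Of all loci 22.7% were called higher and 22.8% lower in that comparison. With replicates 2 and 3 alone, Etv1 was no longer called between fetal and TAC (limma adjusted p = 0.075), while the connexin gene Gjd3 was called higher (0.0244). In fetal against sham the 1 gene called lower was then Kcna5 (limma adjusted p = 0.0224) in place of Irx3. Without TAC replicate 1, 5 were higher in fetal than in TAC, Nppa and Gjd3 being added, and 1 was lower. Summed over the 18 genes, the level was 2139.5, 1541 and 1065 rescaled FPKM in fetal replicates 1 to 3, 1904, 422 and 665 in TAC and 699, 569.98 and 293 in sham. Most of each sum is Nppa.

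**Figure D4:**
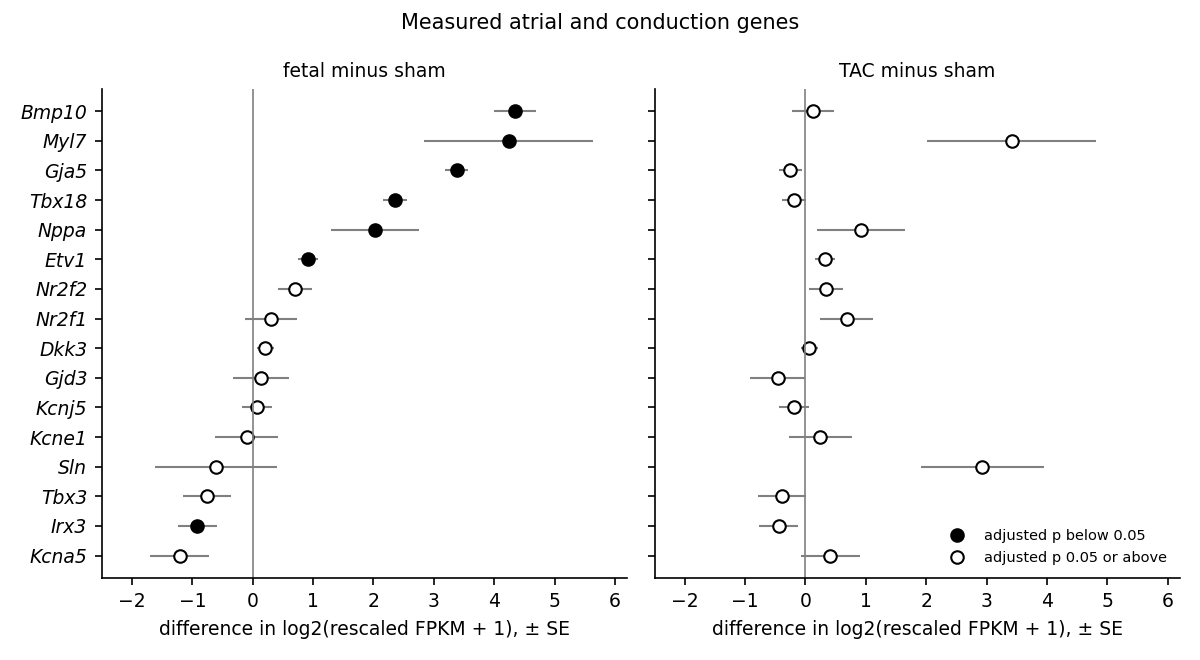
Differences in log2(rescaled FPKM + 1), with SE, of the 16 tested atrial and conduction genes, Myl7, Sln and Gja5 included, for fetal minus sham (left) and TAC minus sham (right); filled points have an adjusted p below 0.05 in limma. On the left 6 filled points lie above 0 and 1 below, on the right none is filled and Myl7 (3.41) and Sln (2.93) lie farthest from 0.

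No other tested connexin was called higher in fetal than in sham. Of 17 in the list 11 carry a symbol and 3 were tested, with 0 higher and 1 lower in fetal relative to sham. Of all loci 22.4% were called higher and 23.1% lower there. Gja1, connexin 43 of working ventricular myocardium, had 324, 333 and 315 rescaled FPKM in fetal replicates 1 to 3, 441, 502 and 397 in TAC and 395, 365 and 547 in sham. Its fetal libraries all lay below the adult ones. Of all loci 27.6% were lower in every fetal than in every TAC library, and the share lower than both adult groups is not given here. The difference of Gja1 to sham of -0.40 was not called (limma adjusted p = 0.0997). Gja4, connexin 37 of endothelium, fell in fetal relative to sham (-0.83, limma adjusted p = 0.0124), with 10.8, 8.38 and 6.67 in fetal and 13.3, 19.9 and 15.2 in sham. Gjd3 (0.14, limma adjusted p = 0.829) was not called there. In every fetal library Gja5 stood below Gja1 and above Gja4, and in every adult library it stood below both.

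Both potassium channel genes of the ventricular list moved the other way from Gja5. Kcnip2, a subunit of the transient outward channel that the files name Kcnip2_v2, had 13.7, 38.4 and 42.1 rescaled FPKM in fetal replicates 1 to 3, 721, 589 and 585 in TAC and 1026, 806 and 804 in sham. It fell in fetal relative to sham (-4.90 on the log2 scale, limma adjusted p = 2.27e-05). Kcnd2, a pore-forming subunit of that channel, fell as well (-1.88, limma adjusted p = 0.00232). Of all loci 23.1% were called lower in fetal relative to sham. Of the 11 genes in that list 3 carry a symbol, Gja1 being the other, and the ventricular myosin light chains were not analysed here.

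Around Sln, 24 other genes of calcium handling by the sarcoplasmic reticulum were listed, 8 carry a symbol and 7 were tested. In fetal relative to sham 1 rose and 4 fell, and between fetal and TAC 0 rose and 4 fell. Of all loci 45.5% were called in each of these comparisons. Hrc, a calcium-binding protein of the reticulum, had 43.3, 59.8 and 43.3 rescaled FPKM in fetal replicates 1 to 3, 693, 773 and 595 in TAC and 581, 656 and 1063 in sham (fetal minus sham -3.91, limma adjusted p = 9.43e-06). Atp2a3, a calcium pump isoform of non-muscle cells, fell (-2.47, limma adjusted p = 2.43e-05), as did the junctional protein Jph1 (-0.83, limma adjusted p = 0.036). S100a1, a regulator of calcium cycling, fell too (-1.76, limma adjusted p = 0.0399), although its fetal and sham libraries overlapped. Casq1, the calsequestrin of fast skeletal muscle, rose by 1.31 (limma adjusted p = 0.0314). The calls of Casq1 (0.0735) and S100a1 (0.174) were lost with replicates 2 and 3 alone, and that of Jph1 with 1 common model length (0.397), all adjusted p of limma. Casq1 was not called without fetal replicate 2 either (limma adjusted p = 0.0608), nor S100a1 without TAC replicate 1 (0.053). None of the 7 was called between TAC and sham by limma, with 0 of 7 at an unadjusted p below 0.05. Their median there was 0.36, against -0.01 over all loci, but 0.18 without TAC replicate 1 and 0.06 with replicates 2 and 3 alone.

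Beside Myl7, 2 further myosin light chains carry a symbol and were tested. Both were called higher in fetal relative to sham, as were 22.4% of all loci. Myl9, the regulatory light chain of smooth muscle and non-muscle cells, had 1356, 1763 and 1649.7 rescaled FPKM in fetal replicates 1 to 3, 129.9, 71.8 and 82.4 in TAC and 124, 69.1 and 74.4 in sham (4.18, limma adjusted p = 1.32e-05). Its TAC and sham libraries overlapped. Mylpf, the fast skeletal form, had at most 3.94 in any library (1.95, limma adjusted p = 0.00144). It passed the filter only through its fetal values, so its call is no support of its own.

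Gja5 is also made by arterial endothelium, and Sln by skeletal muscle, so markers of both were read. Of 16 arterial endothelial markers 9 were tested: 0 were higher and 4 lower in fetal relative to sham (Gja4, Hey1, Dll4 and Sema3g), where 45.5% of all loci were called and 23.1% lower. Without fetal replicate 2, 5 were lower, Sox17 being added. Of the 9, 0 were called between TAC and sham by limma, with 0 at an unadjusted p below 0.05. Their summed level was 82.2, 31956 and 54.1 rescaled FPKM in fetal replicates 1 to 3, between 104 and 119.7 in TAC and between 98.98 and 123 in sham, the value of fetal replicate 2 being almost wholly Sox17. Of 14 markers of endothelium in general 5 were tested, with 0 higher and 3 lower (Tek, Vwf and Esam), and 1 lower without fetal replicate 2. The part of endothelium in the level of Gja5 was not tested.

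Of 20 skeletal muscle markers 10 carry a symbol and 3 were tested. Mylpf and Casq1 were called higher in fetal than in sham, where 22.4% of all loci were called higher. Mylpf and Tnni2 reached the filter value of 1 in the 3 fetal libraries and in TAC replicate 2 alone. Both entered the test through fetal, so this count cannot be set against the share of all loci. With replicates 2 and 3 alone, only Mylpf was called. Between TAC and sham limma called 0, and 1, Mylpf, had an unadjusted p below 0.05. Their summed level ran from 78.7 to 89.6 rescaled FPKM in fetal, 29.01 to 77.9 in TAC and 18.4 to 47.6 in sham, and Casq1 made up most of it. The regulators of the skeletal lineage Myod1, Myf5, Myf6 and Myog were listed at 0 in all 6 adult libraries. Myog was at most 0.797 in fetal libraries. Other markers of the list were above 0 in adult libraries. Casq1 reached 77.6 in TAC replicate 1, where Tnni2 was at 0, Mylpf at 0.25 and 7 of the 10 markers were listed at 0. In TAC replicate 2 Tnni2 reached 1.94 and Mylpf 1.34. Of 17 cardiomyocyte markers 2 carry a symbol: Actc1 was not called (limma adjusted p = 0.633), and Mb, myoglobin, fell in fetal relative to sham (-4.32, limma adjusted p = 6.91e-05). The part of skeletal muscle or atrial tissue in single libraries, such as TAC replicate 1, was not tested.

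Among 4775 tested loci with a symbol and a mean of at least 10, likeness to each gene was measured as the root mean square difference of log2 values centred over the 9 libraries. For Gja5 the nearest were Nusap1 (0.178), Armcx2 (0.237), Epb4.1l3 (0.272), Zwilch (0.291) and Csrp2 (0.294), against a spread of Gja5 itself of 1.666. Nusap1 had 52.01, 45.2 and 36.7 rescaled FPKM in fetal replicates 1 to 3 and between 2.72 and 4.83 in adult libraries. Other genes that separate fetal from adult libraries thus had nearly the same pattern as Gja5.

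Sln and Myl7 had no neighbour so near. For Sln the distances began at 1.285 with Mgst3, a microsomal glutathione transferase, and for Myl7 at 1.185 with Rwdd1, against spreads of 1.950 and 2.471. The 4th nearest locus to Myl7 was Nppa, at 1.541, and the other 4 of its 5 nearest, Rwdd1, Wdr77, RGD1562114 and Glt8d1, were listed at 0 in sham replicate 3. Between the genes themselves the distance was 2.264 for Myl7 and Gja5, 2.574 for Myl7 and Sln and 3.141 for Sln and Gja5.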

How the data were processed

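RNA-seq libraries (Illumina TruSeq, per the labels' protocols) were processed on build rn4 with TopHat 1.3.1, Cufflinks 1.0.3 and Cuffdiff (version not given in the sources used here), per the submitters' processing notes. The authors deposited FPKM with confidence bounds per gene and transcript for each library, assembled separately. Every deposited FPKM carries a further factor particular to its library: medians above 0 ran from 2.73e+06 to 4.6e+07. Isoform lines were assigned to gene lines by file order, span and sum, and the 39492 named reference transcripts were joined into 29328 loci, a locus holding transcripts that had a gene in common in 5 libraries or more. Values were rescaled by the median of ratios over 13175 loci above 0 in every library, to a mean total of 1e+06. Total read counts are unknown; fragments were computed from the bounds of single-transcript lines, and of lines under 20 fragments between 85.1% and 92.9% came out whole within 0.05.

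Loci reaching 1 in no fewer than 3 libraries entered limma 3.58.1 (lmFit, eBayes with trend, 6 residual degrees of freedom) in R 4.3.3, pseudocount 1. The fit was also run on simulated data with means and spreads taken from these libraries. Groups were read from titles and developmental stage. Deviations of libraries with the same number, taken from the titles, correlated between 0.15 and 0.51. Only replicate 1 stood apart, however: between replicates 2 and 3 of different groups the correlation was 0.12 to 0.29. The main fits do not pair libraries. Fits with the number as a block were run as an alternative and are given where they change a call.

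The 3 genes and all gene lists were chosen with earlier results of these data known. Genes named are these 3, measured members of the lists, the 2 highest or called markers, and the 5 loci nearest to each; markers named beyond that were chosen after their values were seen. Genes without a symbol in the files, and Sln in the promoter table, were not analysed by name. Symbols of 16912 loci come from the files, and promoter letters from RefSeq (GRCr8). Some genes of these lists are not reported here.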

Additional observations from a re-analysis of the deposited data

How the results depend on the processing

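The 3 genes and the counts of loci were recomputed under 20 alternatives and the gene lists under 5, the common length for all models, and the settings tried for the lists, being chosen after seeing the data. Gja5 kept its call in all 20 in both fetal comparisons (3.21 to 3.95 against sham, 3.28 to 3.87 against TAC). With reference transcripts only, calls moved to 2060 loci (fetal against sham), 41 (TAC against sham) and 2135 (fetal against TAC), Myl7 between fetal and TAC turned to -0.13, Gja5 between TAC and sham to 0.077, Myl7 between fetal and sham was 2.07 and Sln between fetal and TAC -3.60, both no longer called. Myl7 between fetal and sham missed the threshold without a filter (4.24, limma adjusted p = 0.0625) and with replicates 2 and 3 alone (5.00, 0.0525). Replicates 2 and 3 alone gave 13 loci between TAC and sham against 2, the common length gave 1, and both together 13. Leaving out 1 library gave 5345 to 6649 loci for fetal against sham, 2 to 5 for TAC against sham and 5327 to 6374 for fetal against TAC. It gave 2.53 to 5.12 for Myl7 between fetal and sham, -4.60 to -2.82 for Sln between fetal and TAC, and -1.67 to 0.11 for Sln between fetal and sham, above 0 without fetal replicate 2 (0.11) or sham replicate 1 (0.02). The cause of these changes was not tested. The replicate block changed no call of the 3 genes, Myl7 between fetal and sham staying at 4.24 (limma adjusted p = 0.00993), and in the lists it added Nr2f2 between fetal and sham (0.0492). Equal library totals gave a median over all loci of 0.19 (fetal against sham), -0.07 (TAC against sham) and 0.24 (fetal against TAC), where the median of ratios gave 0.05, -0.01 and 0.03, and called 3662 loci higher and 2293 lower in fetal against TAC, where the median of ratios called 3226 and 3234. Depth limits Sln most: 7 of 9 libraries held at most 72 fragments.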
